A study of Homo sapiens with 4 samples.

Results

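RNA bound by NSUN2 was examined at the genes of the kinesin and dynein motors. The members were all protein-coding genes whose symbols begin with KIF, KLC, DYNC, DYNLL, DYNLRB, DYNLT or DCTN followed by the family's numbering, and that carried at least 1 called peak. They numbered 58 of the 12692 protein-coding genes with a peak. Kinesin heavy and light chains made up 39 of them, dynein subunits 14 and dynactin subunits 5. The choice rested on gene names and on the presence of a peak, not on any difference between conditions.

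Kinesins and cytoplasmic dynein are ATP-driven motors that walk along microtubules, most kinesins toward the plus end and dynein toward the minus end. Kinesins carry vesicles, organelles and RNA, build and position the spindle, or shorten microtubules. Dynein works with the dynactin complex, and a second form, dynein-2, returns cargo along cilia. NSUN2 is a methyltransferase that places 5-methylcytosine (m5C) on RNA.

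The study compared wild-type PANC-1 cells, an established human line from a pancreatic ductal adenocarcinoma, given 30 mM sodium lactate for 24 h with the same cells given ddH2O, the vehicle. RNA was immunoprecipitated (IP) with an antibody to NSUN2, and an input sample was taken before each IP. Each of the 4 combinations was 1 library, so no difference between conditions has a replicate check, no p-value is given for any, and "higher" or "lower" describes these 2 IP libraries only. In a bulk culture, fewer cells with an RNA and less of it per cell cannot be told apart, nor can binding and RNA abundance, since the ratios between IP libraries were not divided by input.

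Each IP library had been set against its input to call peaks, which gave 48104 with lactate and 95785 with ddH2O. They were merged into 116484 regions, and reads were recovered from the deposited densities in a window of 2000 bases around the summit of each. Summed over all windows outside MT-RNR2 and MALAT1, which dominated both libraries, the lactate IP held 1945000 reads and the ddH2O IP 3536821, 1.82-fold more. The ductal keratins KRT7, KRT8, KRT18 and KRT19 had peaks in both lists, with 16 to 2737 reads (lactate) and 37 to 8085 reads (ddH2O) in their densest windows. PTPRC, a leukocyte marker, had 1 ddH2O peak with 0 and 3 reads, and the T cell, endothelial, islet, acinar and hepatocyte markers CD3E, PECAM1, INS, PRSS1 and ALB had none.

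A peak reached into the bases around an annotated transcript start for 5 members, and the 4 on the plus strand are shown, since starts are the places where sequence under a peak could be read. The peaks of KIF11 and DYNC1I2 covered a start itself, and the others lay beside one. RefSeq bases of GRCh38.p14 are given 5′ to 3′ on the plus strand, with 30 bases each taken as near to the summit as the table of starts reached. Capitals mark CNGGG, a motif reported for NSUN2 sites in general (N is any base). The first is DYNC1I2 at chr2:171687566-171687595, then DYNC1H1 at chr14:101964593-101964622, DYNC2LI1 at chr2:43774059-43774088 and KIF11 at chr10:92593150-92593179.
DYNC1I2: acttaaggcccCTGGGttgaCTGGGttctt
DYNC1H1: acggtccggcttccggcggccgtttctgtc
DYNC2LI1: tccttgcggagctcgccgcctgattctagg
KIF11: gagacgagattagtgatttggcggctccga

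DYNC1I2 held 2 copies and the other 3 stretches none. A second stretch of DYNC1I2 under the same peak, chr2:171687489-171687518, held none on either strand. On the opposite strand the printed DYNC1I2 bases held 1 further match, which overlapped the first capitals, and the other 3 printed stretches none. For KIF9, on the minus strand, 30 bases under the ddH2O peak held none on either strand, and 30 bases under a lactate peak held none on the coding and 1 on the opposite strand. At the same distance from the start, 20.7% of all 35116 RefSeq start entries held CNGGG in 30 bases for the position read in DYNC1I2, and 23.1% for the position read in DYNC1H1, DYNC2LI1 and KIF11. A match describes letters only and is not evidence of a site. The peak caller's fold of IP over input at these ddH2O peaks was 3.39 for DYNC1I2, 7.28 for DYNC1H1, 6.07 for DYNC2LI1 and 2.34 for KIF11.

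Motor genes carried 264 lactate peaks and 496 ddH2O peaks. In all, 45 members were in the lactate list, 56 in the ddH2O list and 43 in both. Among all protein-coding genes with a peak, 72.7% were in both lists, so the 43 of 58 lie near that background. DYNLT5, a dynein light chain, and KIFC2 of the kinesin-14 family had a lactate peak only. The 13 members with ddH2O peaks only were DCTN3, DCTN4, DYNC1I1, DYNC2I2, DYNLT1, DYNLT2, KIF20A, KIF26B, KIF4B, KIF5A, KIF5C, KIF6 and KLC4. None of these 15 genes had more than 3 peaks. More ddH2O than lactate peaks were called on 51 members, fewer on 3 (DYNLT5, KIFC2 and KIF3C) and equally many on 4. The ddH2O list was also longer over the whole genome. Cut by score to the size of the shorter list, it held 306 motor gene peaks on 48 members, beside 264 on 45 with lactate. The gap in members was thus smaller at equal list size, and the part of sequencing depth was not tested.

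**Figure D1:**
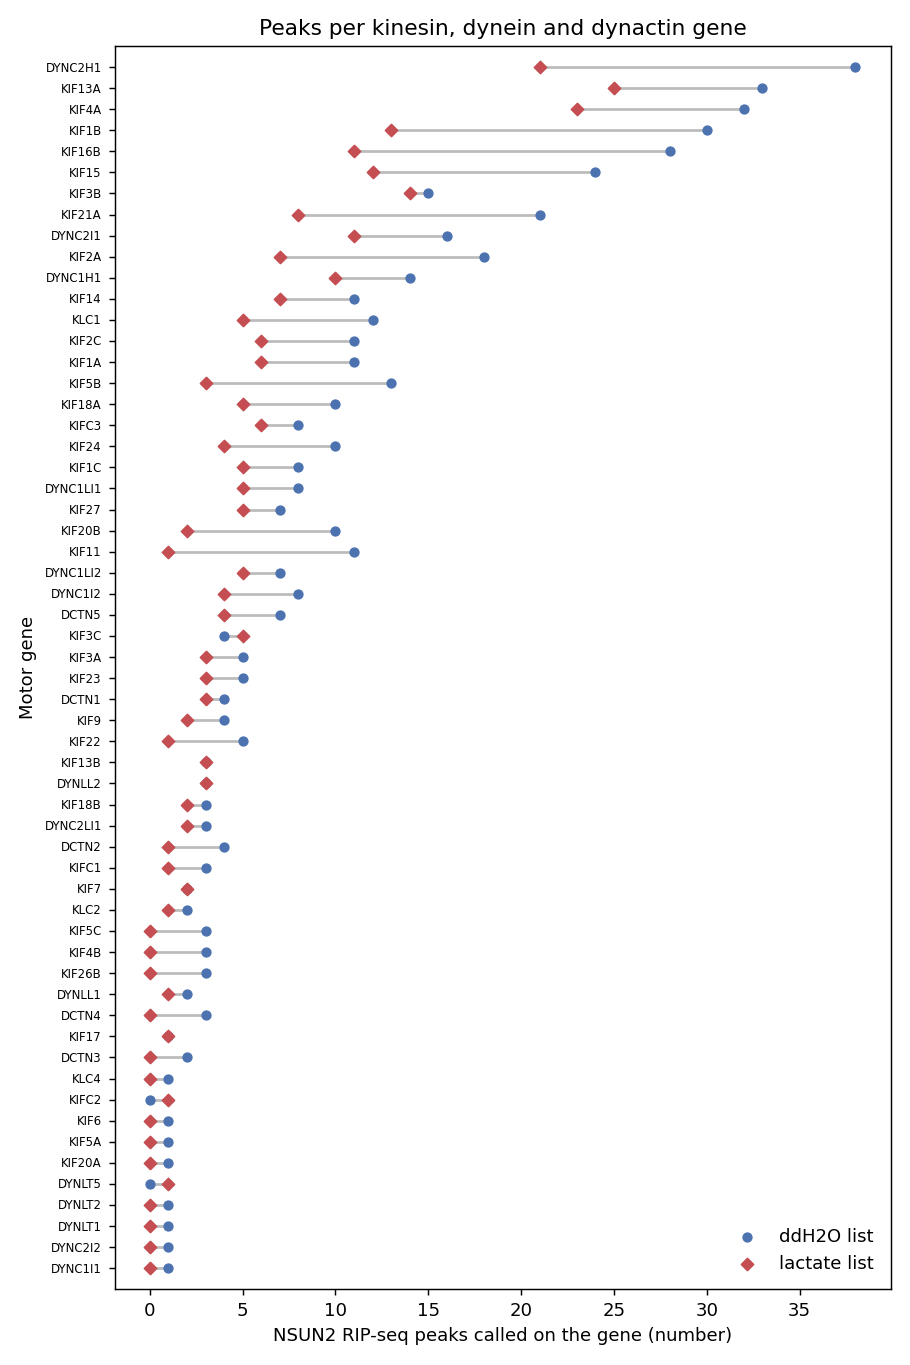
Peaks called on each of the 58 motor genes (horizontal axis, number of peaks), diamonds for the lactate list and circles for the ddH2O list. DYNC2H1 leads with 21 and 38 peaks, the ddH2O count is the larger on 51 genes, and KIF3B has nearly equal counts of 14 and 15.

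The 5 genes with the highest numbers of peaks differed in role. DYNC2H1, the heavy chain of the ciliary dynein-2, had 21 lactate and 38 ddH2O peaks. KIF13A, a kinesin-3 that moves recycling endosomes, had 25 and 33. The chromokinesin KIF4A, which shapes chromosomes and the central spindle, had 23 and 32. KIF1B, a carrier of mitochondria and synaptic vesicle precursors, had 13 and 30, and KIF16B, a carrier of early endosomes, had 11 and 28. These counts were not divided by gene length, which ran from 131 kb (KIF4A) to 370 kb (DYNC2H1). Per 10 kb the 5 genes had 1.29 (KIF16B) to 4.21 (KIF4A) peaks over both lists. The highest values of any member were 6.84 for KIF4B and 6.09 for KIF2C.

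Motor gene peaks lay in exons more often, and in introns less often, than peaks on protein-coding genes as a whole. With lactate 31.8% of the 264 peaks were exonic (95% Wilson interval 26.5 to 37.7), against 18.8% of all protein-coding peaks. With ddH2O the exonic share was 36.7% (32.6 to 41.0), against 21.0%. Introns held 48.1% of the lactate peaks (42.1 to 54.1) and 44.4% of the ddH2O peaks (40.0 to 48.8), against 61.5% and 61.2%. The 3′ UTR shares, 18.6% (14.3 to 23.7) with lactate and 17.7% (14.6 to 21.3) with ddH2O, stood beside 18.1% and 15.8% over all. These intervals, like all others given here, cover counting error only, and peaks on the same gene are not independent.

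The label 3′ UTR needs care for some of these genes, because it belongs to whichever transcript the annotation chose. Of the 137 motor gene peaks labelled 3′ UTR, 63 lay more than 10 kb from the 3′ end of the RefSeq gene. They included all 16 of DYNC2H1, 275 to 337 kb from that end, and all 21 of KIF15, 16.6 to 74.3 kb from it. For KIF3B, KIF1C and DYNLL2 every such peak lay within 10 kb.

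The peak caller's fold of IP over input had a median of 3.64 for motor gene peaks in either list, beside 3.24 (lactate) and 3.03 (ddH2O) for all protein-coding peaks. With lactate 48.9% of the motor gene peaks had a q-value below 0.05 (background 44.6%), and with ddH2O 59.9% (background 50.9%). A ddH2O peak overlapped 179 of the motor gene lactate peaks (67.8%, background 58.5%). The reverse held for 173 of their ddH2O peaks (34.9%, background 29.9%).

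The most enriched of the motor gene peaks lay on an exon of KIF13A. At chr6:17794091-17794849 it reached 35.8-fold over input with ddH2O, and the lactate peak at the same place reached 16.2-fold. The window held 32 reads with lactate and 54 with ddH2O, a log2 ratio of -0.20 (-0.89 to 0.44), so the counting interval of the ratio between the IP libraries included 0.

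KIF1A, which carries synaptic vesicle precursors, had the next highest ddH2O fold, 23.1, at an exon (chr2:240784805-240785242). Next came DYNC2I1, an intermediate chain of dynein-2, with 20.5-fold at a 5′ UTR (chr7:158869678-158870074). KLC1, a light chain that couples kinesin-1 to cargo, reached 19.4-fold at a 3′ UTR (chr14:103701181-103701655). The windows of these 3 peaks did not pass 2-fold between conditions. Their log2 ratios were -0.60 (35 lactate and 82 ddH2O reads), -0.88 (17 and 44) and -0.48 (20 and 39).

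With lactate the highest fold, 18.6, was at the 3′ UTR of KIF1C (chr17:5024398-5024831), a fast motor of vesicles and dense-core granules. Its merged window held 221 lactate and 274 ddH2O reads, with a log2 ratio of 0.66 (0.40 to 0.92). Another 3′ UTR peak of KIF1C (chr17:5025904-5027018), had the fifth ddH2O fold, 16.2, and 64 and 113 reads. DYNC2H1 reached 13.0-fold with lactate at an exon (23 and 37 reads), and KIF1A 12.4-fold at its 3′ UTR (132 and 137 reads, log2 ratio 0.77, 0.41 to 1.12). Both 3′ UTR windows, of KIF1C and KIF1A, leaned toward lactate by less than 2-fold.

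KIF4A reached 12.7-fold with lactate and 14.2-fold with ddH2O at an exon (chrX:70395489-70395899), yet its window held only 4 lactate and 16 ddH2O reads. A fold above the window's own reads plus 1 occurred at 17 lactate peaks on motor genes (6.44%; 3.48% over all lactate peaks) and at 36 of their ddH2O peaks (7.26%; 4.49% over all). The peak caller and the density table may not have counted the same reads at these places, which was not tested, so fold and reads are read separately.

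Between the IP libraries, motor gene windows leaned toward ddH2O. Of their 582 windows, 240 held at least 20 reads over both libraries (41.2%; 32.6% of all windows), and these lay on 41 genes. On the deposited scale, which MAnorm sets with a line through the shared peaks, 11 of the 240 were more than 2-fold higher with lactate (4.58%), where the background over all 37925 windows was 7.65%. More than 2-fold lower were 62 (25.8%), where the background was 18.6%. The median log2 ratio was -0.48, beside -0.20 for all windows.

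The scaling moved both motor genes and background. With library sums in place of the MAnorm line, 24 windows were higher (10.0%, background 17.0%) and 30 lower (12.5%, background 8.77%), so lower windows made up 55.6% of those past 2-fold rather than 84.9%. The median became -0.19, beside 0.13 for all windows. All 11 higher windows and 30 lower windows, on 7 and 17 genes, passed 2-fold on both scales. Summed over windows that do not overlap, the motor genes held 7349 lactate and 14391 ddH2O reads, 1.96-fold more with ddH2O. Over all windows outside MT-RNR2 and MALAT1 that ratio was 1.82.

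Counted by gene, 7 of the 41 members had at least 1 higher window (17.1%, background 15.9%) and 27 at least 1 lower window (65.9%, background 36.9%), with 6 genes in both counts. By library sums 13 had a higher window (31.7%, background 29.1%) and 17 a lower (41.5%, background 21.1%). Motor genes had a median of 4 windows each and protein-coding genes 2, which raises a count of this kind. The 17 members with no window of 20 reads were DCTN4, DYNC1I1, DYNC2I2, DYNLT1, DYNLT2, DYNLT5, KIF17, KIF20A, KIF24, KIF26B, KIF27, KIF4B, KIF5A, KIF5C, KIF6, KIF9 and KLC4, and no call was made on them. The counting interval of the ratio left out 0 on both scales in the densest windows of 4 of these genes. KLC4 had 1 lactate and 16 ddH2O reads (-3.03, -9.33 to -1.26), KIF24 and KIF4B 2 and 17 each (-2.47, -6.13 to -0.90), and KIF17 8 and 1 (2.15, 0.08 to 8.45). Over its windows that do not overlap, KIF24 held 27 lactate and 45 ddH2O reads. The share of all windows under 20 reads with such an interval was not counted, so these values only describe the 4 windows.

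The median of motor gene windows was below that of all protein-coding windows in introns, exons and 3′ UTRs, although in 3′ UTRs this held only for thinly counted windows. In introns, 10 of 83 windows were higher (12.0%, background 13.0%) and 20 lower (24.1%, background 17.3%), with a median of -0.32 beside -0.03. In exons, 1 of 95 was higher (1.05%, background 2.12%) and 28 lower (29.5%, background 22.7%), with a median of -0.69 beside -0.39. In 3′ UTRs, 0 of 60 were higher (background 2.28%) and 13 lower (21.7%, background 15.5%), with a median of -0.42 beside -0.22. Library sums gave in introns 16 higher (19.3%, background 27.3%) and 7 lower (8.43%, background 7.66%), with a median of 0.09 beside 0.45. In exons they gave 6 higher (6.32%, background 6.79%) and 12 lower (12.6%, background 11.6%), with -0.42 beside -0.14. In 3′ UTRs they gave 2 higher (3.33%, background 6.63%) and 10 lower (16.7%, background 7.03%), with -0.07 beside -0.02. The 3′ UTR windows of 20 to 50 reads had a median of -1.33 beside -0.51, those of 50 to 100 reads -0.36 beside -0.38, and those of 100 or more -0.01 beside -0.06, with 20 motor gene windows in each. In the library sum scaling the gap between the 3′ UTR medians nearly closed, and the median of intron windows was above 0 in both sets.

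The kinesin-1 gene KIF5B encodes the conventional heavy chain that hauls vesicles and mitochondria. Its densest window, on an exon (chr10:32035372-32035862), held 703 lactate reads (652 to 757) and 1969 ddH2O reads (1883 to 2058), the most of any motor gene. The log2 ratio was -0.14 (-0.26 to -0.01) on the deposited scale and -0.62 by library sums. A neighbouring window that shares reads with it held 638 and 1770. These were not the most enriched places: the ddH2O peak reached only 1.65-fold over input, and no lactate peak was called there. Elsewhere in KIF5B the highest ddH2O fold was 7.09, with 28 and 68 reads. Over its 10 windows the median was -0.77, with 0 higher and 2 lower, beside 7.65% and 18.6% of all windows. By library sums it was -0.52 with 1 higher and 0 lower, beside 17.0% and 8.77%. The other kinesin-1 heavy chains, KIF5A and KIF5C, had 1 and 3 ddH2O peaks and at most 7 reads in a window. The densest window of KLC1, a light chain of kinesin-1, held 22 and 64 reads (-0.98, -1.79 to -0.31).

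The 4 kinesin-2 genes as a class showed the least lean toward ddH2O among the kinesin classes with more than 10 windows, though most of their windows were of KIF3B. Their 18 windows had a median of -0.02, with 4 higher (22.2%, background 7.65%) and 2 lower (11.1%, background 18.6%). By library sums the median was 0.35, with 6 higher and 1 lower (33.3% and 5.56%, backgrounds 17.0% and 8.77%). On the deposited scale KIF3B gave 11 of the 18 windows (median 0.39), KIF3A 5 (-0.85), KIF3C 2 (0.38) and KIF17 0. The 4 higher windows on the deposited scale were intronic and belonged to KIF3B, which joins KIF3A in the heterotrimeric motor of ciliary transport. At chr20:32293012-32293703 KIF3B had 36 lactate and 16 ddH2O reads, a log2 ratio of 1.53 (0.69 to 2.53). At chr20:32280009-32280706 it had 32 and 17 reads (1.28, 0.43 to 2.26). Each had a neighbour within 2000 bases, with 20 and 11 reads (1.11) and 42 and 28 reads (1.06), so the 4 windows mark 2 places. Both places had peaks in both lists. Another intron of the same gene went the other way, with 5 lactate and 20 ddH2O reads (-1.59, -3.55 to -0.33).

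At the 3′ end of KIF3B the reads were far more numerous and the ratio small. The window at chr20:32332709-32333757 held 292 lactate reads (259 to 327) and 467 ddH2O reads (426 to 511), with a log2 ratio of 0.39 (0.17 to 0.60), or 0.19 by library sums. The partner gene KIF3A had a median of -0.85 over 5 windows. Its densest window, an exon, held 56 and 217 reads (-1.16).

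The kinesin-3 genes contributed 46 windows with 3 higher (6.52%, background 7.65%), 15 lower (32.6%, background 18.6%) and a median of -0.50. By library sums 7 were higher and 6 lower (15.2% and 13.0%, backgrounds 17.0% and 8.77%) and the median was -0.10. The largest log2 ratio among windows of 20 reads was in an intron of KIF13A (chr6:17941715-17941914), with 15 lactate reads (8.40 to 24.7) and 5 ddH2O reads (1.62 to 11.7), 1.60 (0.23 to 3.58). Only ddH2O had a called peak there. An exon of KIF1A (chr2:240716940-240717466) had 26 and 13 reads (1.30, 0.34 to 2.43). KIF1A, KIF1B and KIF1C also gave 3 of the lowest windows. Another KIF1A exon (chr2:240787906-240788328) had 2 lactate and 35 ddH2O reads (-3.39, -7.03 to -1.97). An intron of KIF1C had 1 and 21 (-3.37, -9.67 to -1.67), and a window of KIF1B labelled 3′ UTR had 1 and 19 (-3.25, -9.55 to -1.52). Hence KIF1A carried a window past 2-fold in each direction. Of this class the densest window was an exon of KIF16B with 241 and 416 reads (0.24, 0.01 to 0.47).

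In the kinesin-4 genes the median over 40 windows was -0.74, with 1 higher (2.50%, background 7.65%) and 11 lower (27.5%, background 18.6%). By library sums 3 were higher and 4 lower (7.50% and 10.0%, backgrounds 17.0% and 8.77%), with a median of -0.31. KIF4A took 25 of those windows. An intron of KIF4A (chrX:70338884-70339118) had 37 lactate and 25 ddH2O reads (1.01, 0.26 to 1.83), and only lactate had a peak there. Exons of KIF4A went lower, with 19 and 66 reads at one (-1.24, -2.11 to -0.54) and 13 and 56 at another (-1.59, -2.66 to -0.78). The 3′ UTR, its densest window, held 77 and 180 reads (-0.42, -0.84 to -0.04). KIF4B is a near-identical copy of KIF4A and how reads were divided between them was not given, so the 3 ddH2O peaks of KIF4B, with at most 2 and 17 reads, are uncertain.

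Of the members with more than 10 windows, the lowest median was that of KIF15, the kinesin-12 that helps keep spindle poles apart beside KIF11. Of 15 KIF15 windows 9 were lower (60.0%, background 18.6%) and 0 higher (background 7.65%), with a median of -1.58. By library sums 7 were lower (46.7%, background 8.77%) and the median was -0.97. The exon at chr3:44812939-44813360 had 13 lactate and 58 ddH2O reads (-1.63, -2.71 to -0.83). The next window, which overlaps it, had its peak at chr3:44814750-44815254 and held 10 and 53 reads (-1.89, -3.14 to -1.01). Introns of KIF15 were closer to 0: at chr3:44844695-44845523 there were 32 and 70 reads (-0.53, -1.21 to 0.06). The densest window held 37 and 94 reads (-0.70, -1.31 to -0.16). Without KIF15 the motor genes had 53 of 225 windows lower (23.6%, background 18.6%) and a median of -0.42. By library sums they had 23 lower (10.2%, background 8.77%) and a median of -0.14, nearer to the background than with KIF15.

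KIF20B, a kinesin-6 of cytokinesis, had the densest window after KIF5B. At chr10:89738007-89738576 there were 228 lactate reads (199 to 260) and 548 ddH2O reads (503 to 596), with a log2 ratio of -0.21 (-0.44 to 0.02). Its 9 windows of at least 20 reads were all exonic and all below 0, where protein-coding exon windows had a median of -0.39 and an upper quartile of 0.06. Of all 10 KIF20B windows 6 did not overlap one another, so some of the 9 share reads. At chr10:89743852-89744096 it had 18 and 127 reads (-2.18, -3.04 to -1.52), and at chr10:89724940-89725292 it had 34 and 157 reads (-1.50, -2.11 to -0.99). These 2 of the 9 windows were past 2-fold on both scales. Of all protein-coding exon windows, 22.7% were lower on the deposited scale and 11.6% by library sums. The folds of KIF20B over input were modest, at most 3.79 with lactate and 3.89 with ddH2O.

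**Figure D2:**
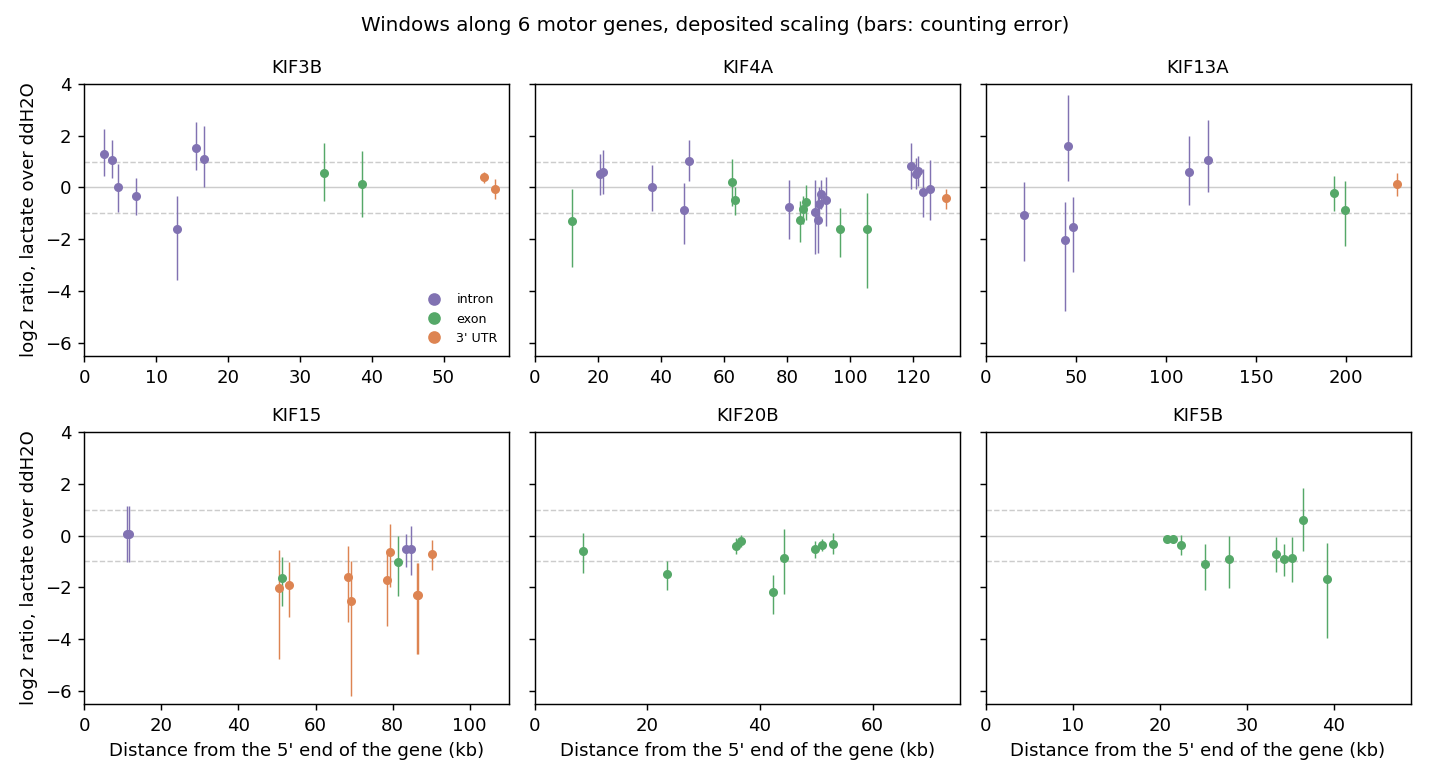
The log2 ratio of lactate IP over ddH2O IP (vertical axis, deposited scaling) for every window of at least 20 reads along KIF3B, KIF4A, KIF13A, KIF15, KIF20B and KIF5B, by distance of the window from the 5′ end of the RefSeq gene in kb, where colours give the annotated region and bars the 95% counting interval. The 4 windows of KIF3B above 1 are introns within the first 20 kb, and 9 of the 15 windows of KIF15 lie below -1.

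Among the remaining kinesins, the microtubule depolymerases of the kinesin-13 class had 2 higher and 5 lower of 21 windows (median -0.61; 9.52% and 23.8%, beside 7.65% and 18.6%). By library sums there were 2 of each (9.52%, beside 17.0% and 8.77%), with a median of -0.14. An intron of KIF2C, which acts at centromeres, had 26 lactate and 14 ddH2O reads (1.21, 0.26 to 2.30). KIF2A had its densest window on an exon, with 52 and 146 reads (-0.75, -1.26 to -0.31). KIFC1, a minus-end kinesin that clusters centrosomes, had 3 windows, all lower (background 18.6%), with a median of -1.92. The middle window of KIFC1 shares reads with both others, so the 3 are not separate places. By library sums 2 were lower (background 8.77%), with a median of -1.46. An exon of KIFC1 (chr6:33406664-33407116) had 2 and 19 reads (-2.61, -6.27 to -1.07). Its relative KIFC3 went the other way by less than 2-fold, with 49 and 51 reads (0.53, -0.07 to 1.12) in a window that also held a peak of another gene without a symbol.

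The further spindle motors KIF18B, KIF22 and KIF11 stayed within 2-fold in their densest windows. KIF18B, which works at microtubule plus ends, had 115 lactate reads (94.9 to 138) and 132 ddH2O reads (110 to 157) at its 3′ UTR, 0.60 (0.23 to 0.97). KIF22, a chromokinesin that pushes chromosome arms, had 124 and 270 reads at an exon (-0.22, -0.54 to 0.09). KIF11, the kinesin-5 that pushes spindle poles apart, had 11 ddH2O peaks and 1 lactate peak but only 1 window of 20 reads, with 32 and 72 reads (-0.57, -1.24 to 0.02). KIF9 and KIF26B, whose ontology terms mention neither mitosis nor the spindle, were thinly counted. KIF9 had 6 and 11 reads in its densest window (-0.61, -2.43 to 0.85). KIF26B had 0 (up to 3.69) and 4 (1.09 to 10.2), a log2 ratio of -2.50, or -1.46 by library sums, with upper limits of 0.42 and 1.46.

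Genes whose ontology terms mention mitosis or the spindle did not stand far from the others. The 29 such members had 146 windows with 8 higher and 41 lower (median -0.50), and the other 29 members had 94 windows with 3 higher and 21 lower (median -0.44). Higher windows were 5.48% and 3.19%, beside a background of 7.65%, and lower windows 28.1% and 22.3%, beside 18.6%. By library sums the counts were 17 higher and 19 lower (median -0.23) against 7 and 11 (median -0.10), with higher shares of 11.6% and 7.45% beside 17.0% and lower shares of 13.0% and 11.7% beside 8.77%.

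Dynein and dynactin genes had medians nearer to 0 than the kinesins. The 42 windows of dynein subunits had 1 higher and 8 lower with a median of -0.27, and the 12 of dynactin had 0 higher and 1 lower with a median of -0.27. The 186 kinesin windows had 10 higher and 53 lower with a median of -0.58. Higher windows were 2.38%, 0% and 5.38% of the 3 sets, beside a background of 7.65%, and lower windows 19.0%, 8.33% and 28.5%, beside 18.6%. By library sums dynein had 5 higher and 6 lower (median 0.08), dynactin 0 and 0 (median -0.10) and kinesins 19 and 24 (median -0.27), with higher shares of 11.9%, 0% and 10.2% beside 17.0% and lower shares of 14.3%, 0% and 12.9% beside 8.77%. In that scaling the share of lower windows was not smaller in dynein than in kinesins. These counts were not compared by a test, as windows of a gene share their RNA.

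Among the heavy chains, DYNC1H1, the force-producing chain of cytoplasmic dynein, had 157 lactate reads (133 to 184) and 262 ddH2O reads (231 to 296) at its 3′ UTR, a log2 ratio of 0.19 (-0.11 to 0.47). DYNC2H1 had 0 higher and 2 lower of 13 windows, beside 7.65% and 18.6% of all windows. The intermediate chains, which in cytoplasmic dynein tie the motor to dynactin and to cargo, went in both directions. An intron of DYNC2I1 (chr7:158938232-158938803) had 33 lactate and 15 ddH2O reads (1.48, 0.61 to 2.52). At its densest exon DYNC2I1 had 162 and 251 reads (0.29, -0.01 to 0.58).

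DYNC1I2 had the lowest ratio among windows of 20 reads. Its intron at chr2:171745960-171746159 held 1 lactate read (0.0253 to 5.57) and 23 ddH2O reads (14.6 to 34.5), a log2 ratio of -3.49 (-9.79 to -1.80). Better counted was the transcript start whose bases are printed above, where 53 and 218 reads gave -1.25 (-1.73 to -0.83), or -1.16 by library sums. In this 5′ UTR window, too, only ddH2O had a called peak. An exon of the same gene nearby (chr2:171689975-171690356) held 27 and 49 reads (-0.33, -1.09 to 0.35). The processed pseudogene DYNC1I2P1 resembles this gene, so reads may be divided between them.

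Light intermediate chains bind the adaptors that link dynein to cargo. DYNC1LI2 had 205 lactate reads (178 to 235) and 350 ddH2O reads (314 to 389) at one exon, 0.22 (-0.04 to 0.47). At another exon (chr16:66729608-66730266) it had 3 and 34 reads (-2.90, -5.62 to -1.61). Of the light chains, DYNLL2 had 117 and 167 reads at its 3′ UTR (0.32, -0.04 to 0.67). In dynactin the densest window was of DCTN2, the dynamitin subunit, with 211 lactate reads (183 to 241) and 512 ddH2O reads (469 to 558) at an exon, -0.24 (-0.48 to -0.01).

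**Figure D3:**
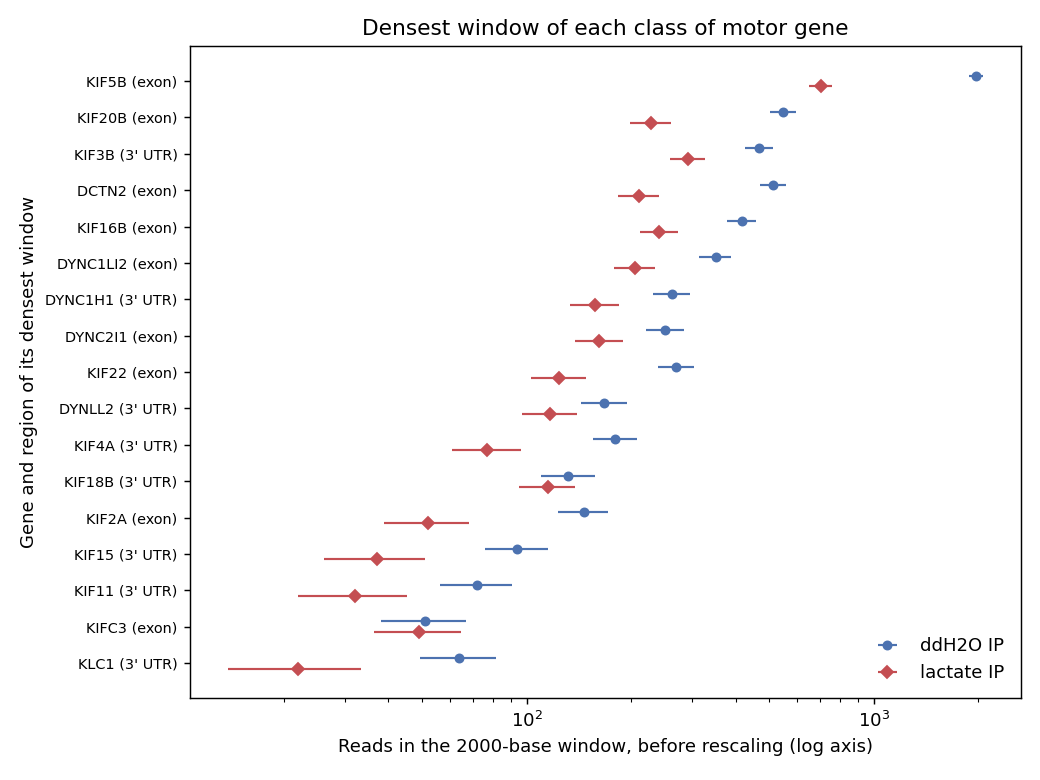
Reads in the densest window of each motor gene class with a window of 20 reads (horizontal axis, log scale, reads before rescaling) in the lactate IP (diamonds) and the ddH2O IP (circles), with exact 95% Poisson intervals. KIF5B stands first with 703 and 1969 reads, the intervals overlap only for KIF18B and KIFC3, and the library sums alone differ by 1.82-fold.

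All 12 of the lowest and highest windows named above except those of KIF3B, DYNC2I1 and the KIF1A exon with 26 reads had a called peak with ddH2O only. Over the motor genes, the 128 windows with peaks in both lists had 7 higher (5.47%, beside 7.56% of all windows of that kind) and 15 lower (11.7%, beside 8.91%), with a median of -0.18 beside -0.03. The 101 with a ddH2O peak only had 2 higher (1.98%, beside 1.80%) and 44 lower (43.6%, beside 36.7%), with a median of -0.85 beside -0.70. The 11 with a lactate peak only had 2 higher (18.2%, beside 27.8%) and 3 lower (27.3%, beside 3.50%), with a median of -0.35 beside 0.47. By library sums the windows with peaks in both lists had 19 higher (14.8%, beside 17.8%) and 5 lower (3.91%, beside 2.77%). Those with a ddH2O peak only had 3 higher (2.97%, beside 6.48%) and 24 lower (23.8%, beside 19.6%), and those with a lactate peak only 2 higher (18.2%, beside 48.4%) and 1 lower (9.09%, beside 0.82%). The lists and the ratios come from the same IP libraries, so these medians are descriptions.

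Partners of the motors, from a list of 34 adaptors and regulators, had peaks on 32 genes. Of the 28 with a window of 20 reads, 10 had a higher (35.7%, background 15.9%) and 15 a lower window (53.6%, background 36.9%). By library sums these were 14 and 6 (backgrounds 29.1% and 21.1%). These genes, too, had a median of 4 windows each. Counted by window, 16 of 212 were higher (7.55%, background 7.65%) and 48 lower (22.6%, background 18.6%), with a median of -0.27. By library sums the majority turned, with 42 higher (19.8%, background 17.0%) and 20 lower (9.43%, background 8.77%). The densest were of CCDC88A (girdin, 882 lactate and 2736 ddH2O reads), CENPE (the kinetochore motor of the kinesin-7 family, 350 and 1088), ACTR1A (the actin-related filament of dynactin, 210 and 299) and NDE1 (a dynein regulator, 127 and 416). Their log2 ratios were -0.22, -0.44, 0.46 and -0.75 (-0.77, -0.77, 0.35 and -0.84 by library sums). Over all its windows of 20 reads, CENPE had 0 higher and 12 lower of 18 on the deposited scale (backgrounds 7.65% and 18.6%). CCDC88A had 1 and 2 of 21, ACTR1A 0 and 2 of 4, and NDE1 1 and 0 of 9.

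The track itself was covered by a list of 32 tubulins and microtubule binding proteins, of which 31 had a peak. Of the 25 with a window of 20 reads, 7 had a higher (28.0%, background 15.9%) and 11 a lower window (44.0%, background 36.9%). By library sums these were 12 and 6 (backgrounds 29.1% and 21.1%). Counted by window, 16 of 166 were higher (9.64%, background 7.65%) and 27 lower (16.3%, background 18.6%), with a median of 0.01. By library sums 43 were higher (25.9%, background 17.0%) and 7 lower (4.22%, background 8.77%), so here too the majority turned. MAP1B, which stabilises microtubules, had 2924 lactate and 7510 ddH2O reads in its densest window, a log2 ratio of 0.32 that became -0.50 by library sums. The tubulin genes TUBB, TUBA1B and TUBB4B had 1656 and 2971, 924 and 2293, and 695 and 1157 reads, with log2 ratios of 0.66, 0.09 and 0.55 (0.02, -0.45 and 0.13 by library sums). The directions of MAP1B and TUBA1B thus turned with the scaling.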

How the data were processed

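NSUN2 RIP-seq of PANC-1 cells comprised 4 libraries (IP and input, 30 mM lactate or ddH2O, 24 h), made with a SMART-Seq v4 kit, which does not keep strand, so overlapping and antisense genes cannot be told apart. The submitters' processing notes name fastp 0.20.1, HISAT2 2.1.0, MACS2 2.2.7.1, bedtools 2.29.2, HOMER 4.11.1 and DiffBind, on GRCh38 (hg38). The authors deposited 2 peak lists, each called in 1 IP library against its own input, with the fold (a ratio of IP over input), the p-value and q-value, and both also as −log10. Another deposited table gives normalised read density (signal) of both IP libraries in windows of 2000 bases around merged peaks, scaled by MAnorm, whose version is not given in the sources used here. That table's columns of log2 ratio, mean and p-value are the authors' own comparison and were not used.

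Log2 ratios were computed from the densities. Whole reads were recovered from them by undoing the line of MAnorm (slope 0.169, intercept -0.204) and 1 added read; 99.998% of values came out whole within 0.05. The line shifts the log2 ratio by 0.19 at 20 reads and by 1.35 at the densest motor gene window. Depth over all windows was 9756054 (lactate) and 9553835 (ddH2O) reads, most on MT-RNR2 and MALAT1. A window with at least 20 reads over both IP libraries and a log2 ratio past 1 in size was called by size alone. Intervals at 95% are exact Poisson for reads, Clopper-Pearson for ratios and Wilson for shares. Peaks and windows were joined by 1 base (bedtools 2.31.1, pandas 2.3.3, scipy 1.17.1, Python 3.11.15), and the recovery was tested on simulated data. RefSeq tables (GRCh38.p14) gave gene ends and, for 49 of the 58 members, start sequences; 2052 of 2052 overlapping entries on opposite strands were reverse complements.

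Named were the densest window of each class, the 6 highest and 6 lowest log2 ratios, the 5 highest folds of each list, the 5 genes with most peaks, members missing from a list, and up to 4 genes of each partner list; further windows of these genes, and KIF3A, were added after their values were seen. Members and lists were chosen with earlier results of these data known. Alternatives were library sums, re-centring, other read minima and folds, non-overlapping windows, stricter peak thresholds and lists of equal size. Leaving out KIF15 was added after seeing the data.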

Additional observations from a re-analysis of the deposited data

How the results depend on the processing

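No paired analysis was possible because the design holds 1 IP library for lactate and 1 for ddH2O, and no replicate could be left out. With library sums the motor gene windows past 2-fold numbered 24 higher and 30 lower, in place of 11 and 62. They numbered 34 and 98 of 371 windows at a minimum of 10 reads, 3 and 23 of 137 at 50 reads, and 69 and 195 of 582 with no minimum. In windows that do not overlap they were 6 and 37 of 146. Of the 240 windows, 25 and 108 were past 1.5-fold, and 0 and 15 past 4-fold. Fewer or more windows entered each of these by construction. The share of all windows called was not computed at these settings, so the counts cannot be set beside a background. Re-centring on the median of all windows and leaving out KIF15 kept both counts within 1.5 times. Peaks with a q-value below 0.05 were 36.4% intronic, 38.8% exonic and 24.0% in 3′ UTRs with lactate, and 34.3% intronic and 43.8% exonic with ddH2O. Peaks of at least 4-fold were 41.9% intronic with lactate, and 33.2% intronic, 43.6% exonic and 22.3% in 3′ UTRs with ddH2O, with median folds of 6.24 and 6.07. By bases covered, the ddH2O intron share was 39.5%. Of the other settings of these results 36 stayed within the limits set, and of 62 settings of named windows only the densest of KIF5B moved past its counting interval (-0.62 and, re-centred, 0.06). Depth limits the ratios: the median counting interval reached 0.87 on the log2 scale to either side, and 342 of the 582 windows held under 20 reads.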

Other observations

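Genes of other biotypes share the names of motor genes and were outside the members. KIF9-AS1, a long non-coding RNA antisense to KIF9, had 17 lactate and 19 ddH2O peaks, 32 of them in introns. Of its 29 windows 8 held at least 20 reads, with 2 higher and 0 lower, where 7.65% and 18.6% of all windows and 13.0% and 17.3% of protein-coding intron windows were called. Their median log2 ratio was 0.62, beside -0.20 for all windows and -0.03 for such introns, and by library sums 1.24, beside 0.13 and 0.45. Its densest window held 13 lactate and 25 ddH2O reads, a log2 ratio of -0.55. KIF9 itself had 2 and 4 peaks and no window of 20 reads, and without strand the reads of both genes cannot be told apart. KLC1-AS1 had 28 lactate and 17 ddH2O reads in its single window (1.08), and the processed pseudogene DYNC1I2P1 had 50 and 104 (-0.37). KIF28P, a pseudogene, had 10 and 2 reads and a lactate peak only. DCTN6-DT had 9 and 22 reads (-0.91) and a ddH2O peak only, as had KIF1C-AS1 and KIF25-AS1, while KIF23-AS1 had 1 lactate and 3 ddH2O peaks.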
